A study of Mus musculus with 37 samples.

Results

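The interferon-stimulated genes described here are 40 listed genes, picked by symbol from the 55487 genes of a liver RNA sequencing table, and each was found once. They were listed by name and not by a measured value, although earlier results of these data were known at the time. All 40 passed the filter on low counts and were tested with 15564 genes in all. They fall into 9 roles, which are antiviral IFIT proteins, ISG15 and its protease, transcription factors, the OAS family, Mx GTPases and other antiviral effectors, RNA and Z-nucleic acid sensors, the PARP9-DTX3L pair with PARP14, the GBP and IRG GTPases, and antigen processing.

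As background, type I and type III interferons act through JAK kinases on a transcription factor complex that contains STAT2 and IRF9 and binds the interferon-stimulated response element (ISRE) in promoters. Interferon gamma acts on promoters with the gamma-activated site (GAS), and it drives the GBP and IRG GTPases and the immunoproteasome most strongly. In liver, hepatocytes, Kupffer cells (the resident macrophages) and endothelial cells all respond to interferons and keep a low level of these genes without infection.

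The samples are whole livers of WT mice and of mice labelled NOX4-/- (knockout, KO), which lack an NADPH oxidase that makes hydrogen peroxide, after partial hepatectomy or a sham operation. WT sham and KO sham livers numbered 5 each and were collected at mixed times. Livers were also collected 6 h, 24 h, 48 h and 7 d after hepatectomy, 3, 3, 4 and 3 from WT and 3, 4, 4 and 3 from KO mice. WT sham replicates 1 to 5 came from 7 d, 48 h, 24 h, 48 h and 6 h, and KO sham replicates 1 to 5 from 24 h, 48 h, 48 h, 72 h and 6 h. All 6 h hepatectomy livers were male, and each other group held both sexes. Each label names 1 liver, the KO labels name no cell type in which Nox4 was deleted, and neither strain nor age is given in the sources used here. In whole liver, fewer cells of a type and less RNA per cell cannot be told apart.

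Total counts per library ran from 26232544 to 48827025. The summed level of 8 hepatocyte markers, in CPM (counts per 1000000 counts, scaled between libraries), lay between 40110 and 148300 CPM in every library. Nox4 itself lay between 0.778 and 3.36 CPM in 7 WT females and between 0 and 0.245 CPM in 7 KO females. In males it lay between 3.95 and 23.5 CPM in 11 WT livers and between 0.325 and 4.98 CPM in 12 KO livers. The male ranges overlapped, so the level of Nox4 alone does not separate the genotypes in males. Before the results, 2 libraries need naming because they stood apart in the members. WT 48 h replicate 3 was far above its group, and KO 24 h replicate 1 was above the other 3 livers of its group, so counts that rest on them are given with and without them. Both were named after the members' values were seen, so results without them are descriptions. The share of all genes called also moved between settings. A count of members under another setting is therefore not a result about the members alone.

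Upstream sequences were read from the RefSeq promoter table for GRCm38.p6, which holds 30 of the 40 members, some with more than 1 start site. The letters GAAANNGAAA, the core of the ISRE, were searched on both strands from 250 bases before to 50 bases after the start site, so that TTTC runs mark the reverse strand. They were present in 15 of the members' 34 promoters, 44.1%, and in 3.44% of all 32841 promoters in the table. The GAS letters TTCNNNGAA were present in 8 of the 34, 23.5%, and in 8.30% of all promoters. A match is a description of letters and not evidence of binding. The 4 upstream regions below are shown because these members carry the main results, Gbp2 and Igtp the highest levels of WT 48 h replicate 3, and Ifit3b and Rsad2 opposite changes in KO livers at 24 h. Each runs 5′ to 3′ on the gene's strand over the 250 bases before the start site, with the ISRE letters in capitals.
Gbp2, chr3:142620413-142620662, plus strand: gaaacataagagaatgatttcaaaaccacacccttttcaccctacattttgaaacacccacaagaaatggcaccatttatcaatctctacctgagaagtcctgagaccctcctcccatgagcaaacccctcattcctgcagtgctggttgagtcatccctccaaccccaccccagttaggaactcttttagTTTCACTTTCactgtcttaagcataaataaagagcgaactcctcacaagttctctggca
Igtp, chr11:58199306-58199555, plus strand: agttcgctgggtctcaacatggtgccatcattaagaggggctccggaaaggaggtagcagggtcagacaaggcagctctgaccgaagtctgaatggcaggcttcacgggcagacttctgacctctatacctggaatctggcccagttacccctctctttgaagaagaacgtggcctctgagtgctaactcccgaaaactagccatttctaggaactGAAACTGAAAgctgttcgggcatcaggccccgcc
Ifit3b, chr19:34607707-34607956, plus strand: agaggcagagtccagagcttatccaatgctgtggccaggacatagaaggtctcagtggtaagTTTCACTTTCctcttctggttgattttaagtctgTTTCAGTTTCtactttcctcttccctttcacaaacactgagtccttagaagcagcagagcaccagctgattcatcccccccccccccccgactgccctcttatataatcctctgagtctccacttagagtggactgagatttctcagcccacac
Rsad2, chr12:26456453-26456702, minus strand: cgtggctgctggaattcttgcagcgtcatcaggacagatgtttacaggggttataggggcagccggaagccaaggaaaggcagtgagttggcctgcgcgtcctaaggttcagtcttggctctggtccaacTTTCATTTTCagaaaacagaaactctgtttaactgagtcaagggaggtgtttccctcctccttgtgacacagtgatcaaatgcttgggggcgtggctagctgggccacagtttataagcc
The match began 59 bases before the start site in Gbp2, 34 bases before in Igtp and 120 bases before in Rsad2. Ifit3b held 2 matches, 188 and 154 bases before its start site. Igtp also held a GAS match, 45 bases before the start site and clear of the ISRE letters, whereas Gbp2, Ifit3b and Rsad2 held no GAS letters in this window.

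In WT sham livers the members spanned a wide range of levels per length of transcript. Bst2, which tethers budding virus particles to the cell, had the highest level at 126.5 ± 17.8 CPM per kb of exon (SD, n = 5). Ifi27, a small membrane protein, followed at 47.8 ± 9.04 CPM per kb. A middle group held Igtp, an IRG GTPase (18.5 ± 5.06), Irf7, a transcription factor that amplifies interferon production (14.7 ± 4.65), Ifi35, an interferon-induced leucine zipper protein (14.6 ± 3.94), Isg15, a ubiquitin-like protein (14.1 ± 6.17), and Psmb8, an immunoproteasome subunit (12 ± 3.25 CPM per kb). The levels of those 5 did not differ beyond their spread. Mx1, a GTPase that blocks viral polymerase complexes, was lowest at 0.152 ± 0.0692 CPM per kb, below Ifi44 at 0.269 ± 0.118 and Oas2, a maker of the second messenger 2-5A, at 0.287 ± 0.164 CPM per kb.

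**Figure D1:**
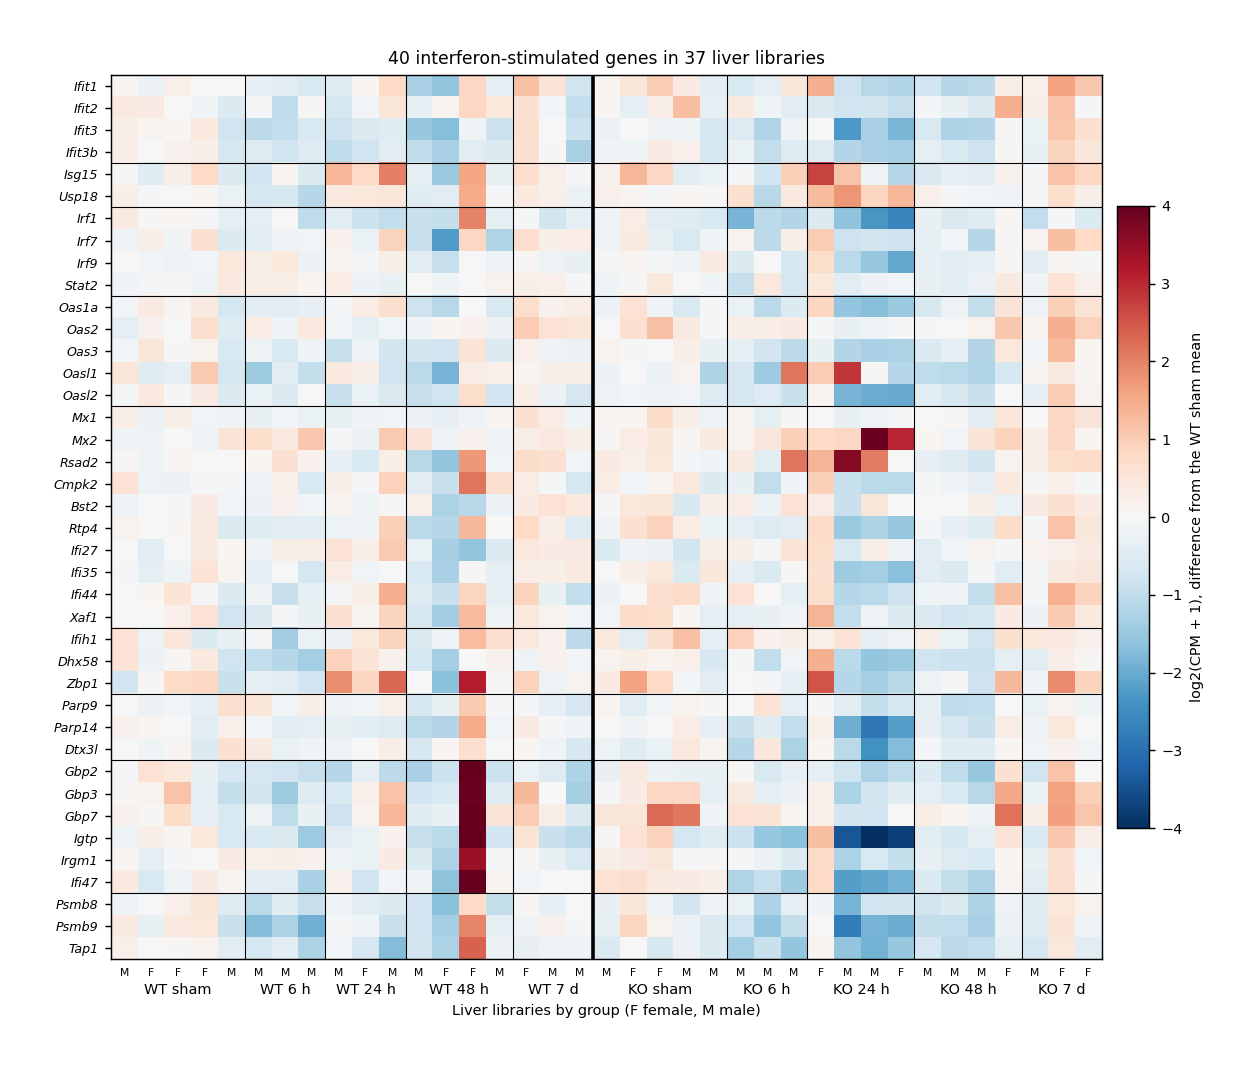
Levels of the 40 members (rows, grouped by role with thin lines) in 37 livers (columns, by group), as log2(CPM + 1) minus the WT sham mean of the gene. Red is higher and blue lower than WT sham. WT 48 h replicate 3 is the reddest column in the GBP and IRG rows, and KO 24 h replicates 2 to 4 are blue in most rows.

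In WT livers the members as a group moved little after hepatectomy. At 6 h none of 40 passed the test in edgeR, against 7.86% of all genes tested, with 4 at an unadjusted p under 0.05 and 0 in DESeq2. The members' median log2 change was -0.06, beside 0.02 over all genes. At 24 h none passed, against 0.925% of all genes, with 5 at an unadjusted p under 0.05, 1 in DESeq2 and 2 without WT 24 h replicate 2. At 7 d none passed, against 0% of all genes, with 1 at an unadjusted p under 0.05 and 1 in DESeq2. Of all 15564 genes, 3838, 2407 and 950 had an unadjusted p under 0.05 at 6 h, 24 h and 7 d.

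The nearest to a call at 24 h was Zbp1, a sensor of Z-form nucleic acids that triggers cell death. It stood at 35.1, 17.0 and 48.0 CPM in the 3 WT 24 h livers and between 4.38 and 16.9 CPM in the 5 WT sham livers. The groups did not overlap, and the difference was 2.71 on the log2 scale (SE 0.70, adjusted p = 0.0520). Isg15 stood at 26.4, 17.9 and 43.0 CPM at 24 h and between 6.45 and 17.9 CPM in sham, a difference of 1.83 (SE 0.59, adjusted p = 0.117). Ifi44, a cytoplasmic protein induced by interferon, differed by 1.58 (SE 0.70, adjusted p = 0.271). At 6 h the 3 smallest p values belonged to Oas2 (0.89 on the log2 scale, adjusted p = 0.112), Psmb9 (-1.38, adjusted p = 0.125) and Dhx58, an RNA sensor (-1.25, adjusted p = 0.159). Psmb9, an immunoproteasome subunit, stood at 3.81, 5.57 and 3.25 CPM in the 6 h livers, all below the 7.56 to 20.5 CPM of WT sham. At 7 d the smallest p was that of Oas2 (1.36, SE 0.33, adjusted p = 0.364).

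At 48 h in WT livers 2 members rose, 5% of them, close to the 4.68% of all genes. Another 1 fell, 2.5% of them, beside 3.62% of all genes. Both that rose are guanylate-binding proteins, GTPases that coat intracellular pathogens and their vacuoles. Gbp2 stood at 1.89, 2.92, 466 and 2.91 CPM in replicates 1 to 4 and between 3.49 and 9.69 CPM in WT sham. Only replicate 3 lay above sham, and the other 3 lay below every sham liver. The fitted change was 3.65 on the log2 scale (SE 0.87, adjusted p = 0.00790). Gbp7 stood at 1.14, 1.45, 155 and 3.30 CPM, with WT sham between 0.984 and 3.96 CPM, and its fitted change was 3.64 (SE 0.91, adjusted p = 0.0110). Ifi27 fell (log2 change -0.90, SE 0.26, adjusted p = 0.0303), from 51.8 to 89.0 CPM in sham to 57.4, 26.8, 22.6 and 46.4 CPM at 48 h. The count was 5 without replicate 1, 6 in DESeq2 and 0 with the compared groups fitted alone. Without replicate 3 no member was called at 48 h, and the difference of Gbp2 became -1.06 (adjusted p = 0.104).

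WT 48 h replicate 3, a female liver, was above the other 3 WT 48 h livers for 34 of the 40 members. It exceeded all 36 other libraries of the series for 17 members, and it exceeded the highest other WT 48 h liver more than 5-fold for 10. These 10 were all 6 GBP and IRG GTPases together with Zbp1, Tap1, Psmb9 and Irf1. For Gbp2 the ratio to the highest other WT 48 h liver was 159.5, for Gbp7 46.9 and for Gbp3 31.9. Igtp stood at 638 CPM beside 18.6, 16.7 and 20.9 CPM, Irgm1, an IRG GTPase of autophagy, at 443.0 CPM beside 16.6 to 38.0 CPM, and Ifi47, another IRG GTPase, at 249.6 CPM beside 3.98 to 15.8 CPM. These are single-liver values, given as a description with no test. The same counts were not made over all genes, so they are not a result about the members alone.

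Antigen processing genes were also high in that liver. Tap1, a subunit of the peptide transporter that feeds class I molecules, stood at 135.1 CPM beside 14.9, 9.97 and 21.6 CPM, and Psmb9 at 60.8 CPM beside 5.17 to 11.4 CPM. Irf1, the transcription factor downstream of interferon gamma, stood at 102.6 CPM beside 13.2, 12.5 and 19.3 CPM. Members of the antiviral roles differed less. Isg15 was 4.02-fold, Rsad2 (viperin, a radical enzyme that blocks viral replication) 3.98-fold and Ifit1 2.67-fold above the highest other WT 48 h liver. The 6 members that were not above the other 3 livers were Stat2, Dhx58, Mx2, Mx1, Bst2 and Ifi27. Stat2, a subunit of the ISRE-binding complex, stood at 25.2, 22.2, 25.2 and 27.5 CPM in the 4 livers.

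Beside these values, the summed level of 6 monocyte markers was 81.4 CPM in replicate 3 and 10.5, 11.2 and 10.4 CPM in replicates 1, 2 and 4. Chil3, a monocyte and neutrophil product, made up 41.5 CPM of it. The sum of 13 T and NK cell markers was 2.88 CPM in replicate 3 and 2.71, 2.31 and 3.94 CPM in the others, and that of 10 Kupffer cell markers was 316 CPM beside 257, 345 and 314 CPM. The sum of 10 sinusoidal endothelial markers was 75.2 CPM beside 154.5, 148.3 and 167.7 CPM, and that of 7 B cell markers was 1.76 CPM beside 6.73, 4.17 and 8.11 CPM, both lowest in replicate 3. Replicate 3 was highest in 5 plasmacytoid dendritic cell markers, at 8.42 CPM beside 0.425, 0.196 and 0.751 CPM, and in 5 cholangiocyte markers, at 68.5 CPM beside 19.5, 13.9 and 22.7 CPM. It was also highest in 10 neutrophil markers, at 17.5 CPM beside 10.4, 5.52 and 3.35 CPM, and in 8 stellate cell markers, at 269.4 CPM beside 156.8, 239.6 and 145.0 CPM. The part of these cells in the result was not tested. Of genes outside the members, Cxcl9, a T cell chemokine chosen after its values were seen, stood at 96.5 CPM beside 3.27, 1.20 and 2.71 CPM.

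**Figure D2:**
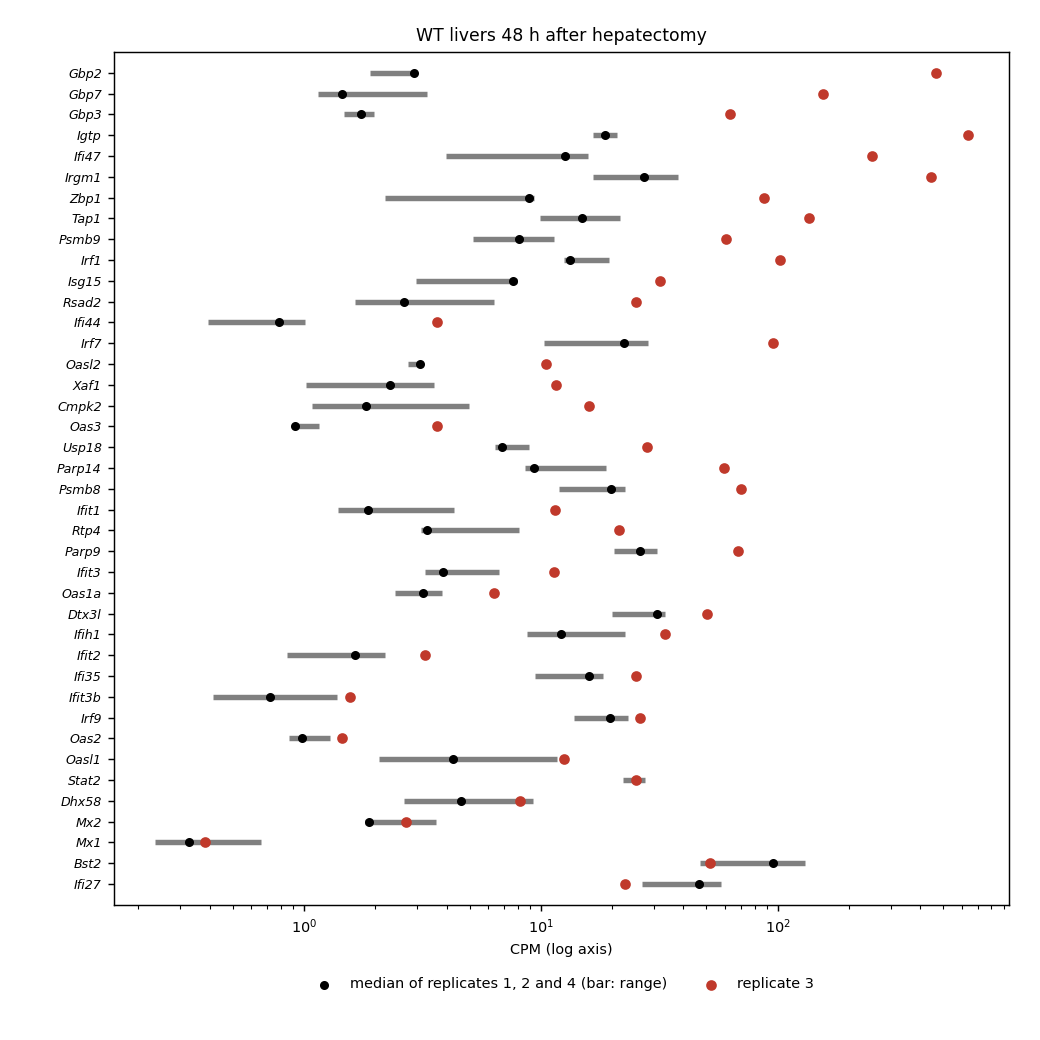
Level of each member in WT livers 48 h after hepatectomy, in CPM on a log axis, ordered by the ratio of replicate 3 (red) to the highest of the other 3 livers (grey bar their range, black point their median). The GBP and IRG GTPases at the top are separated most widely, with Gbp2 at 465.6 against at most 2.92 CPM, and replicate 3 is not above the other livers in the lowest 6 rows.

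In KO livers 24 h after hepatectomy 4 members rose and 11 fell relative to KO sham. The 11 are 27.5% of the members, beside 12.0% of all genes that fell, and the 4 are 10%, beside 15.9% of all genes that rose. The members' median log2 change was -0.83, beside -0.01 over all genes, and 34 of 40 changes were negative. By role, 3 of 4 IFIT genes, 3 of 5 OAS genes and 2 of 3 PARP and DTX3L genes fell, as did 1 of 4 transcription factors, 1 of 6 GBP and IRG GTPases and 1 of 3 antigen processing genes. The genes that rose were 2 of the 10 Mx and other effectors, 1 OAS family gene and the ISG15 protease. None of the 3 sensors was called.

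Mx2, a GTPase of the Mx family, stood at 4.67, 4.75, 48.3 and 26.1 CPM in KO 24 h replicates 1 to 4 and between 2.34 and 3.41 CPM in KO sham. All 4 livers lay above sham, although replicates 3 and 4 lay far above replicates 1 and 2. Its change was 2.85 on the log2 scale (SE 0.48, adjusted p = 0.000124). Usp18, the protease that removes ISG15 and restrains the interferon receptor, stood at 24.2, 34.9, 18.2 and 25.5 CPM, above the 9.27 to 11.2 CPM of KO sham in every liver. Its change was 1.31 (SE 0.33, adjusted p = 0.00376). Rsad2 stood at 19.4, 99.6, 32.1 and 6.98 CPM, against 5.97 to 9.54 CPM in sham, so 3 of 4 livers were above sham. Its change was 2.37 (SE 0.60, adjusted p = 0.00449). Oasl1, which lacks 2-5A synthesis and restrains Irf7 translation, stood at 21.4, 80.0, 10.4 and 3.97 CPM, against 3.72 to 11.1 CPM in sham (1.78, SE 0.65, adjusted p = 0.0404). The high livers were not the same ones for Mx2 as for Rsad2 and Oasl1, which were highest in replicate 2.

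Of the members that fell, Oas3 and Ifit3b had the smallest p values. Oas3, which makes 2-5A in response to double-stranded RNA, stood at 1.62, 0.413, 0.311 and 0.334 CPM, against 1.60 to 2.90 CPM in KO sham. Its log2 change was -2.04 (SE 0.47, adjusted p = 0.00210). Ifit3b, a close copy of Ifit3, which binds viral RNA with other IFIT proteins, stood at 1.41, 0.531, 0.400 and 0.334 CPM, against 1.18 to 3.29 CPM in sham. It fell by 1.89 (SE 0.50, adjusted p = 0.00616). In both genes replicates 2, 3 and 4 were below every sham liver and replicate 1 was within the sham range.

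Replicate 1 was also the highest of the 4 livers in Oasl2, Irf1 and Psmb9. Oasl2 stood at 6.68, 0.974, 0.799 and 0.752 CPM, against 3.99 to 5.62 CPM in sham (-1.49, SE 0.41, adjusted p = 0.00831). Irf1 stood at 16.9, 7.62, 4.26 and 3.30 CPM, against 16.1 to 31.4 CPM (-1.48, SE 0.44, adjusted p = 0.0124). Psmb9 stood at 14.9, 1.36, 3.37 and 3.01 CPM, against 9.72 to 27.8 CPM (-1.67, SE 0.50, adjusted p = 0.0136). Oas2 differed in this respect, at 1.09, 0.797, 0.888 and 1.13 CPM against 1.08 to 3.94 CPM, with replicate 4 the highest (-1.08, SE 0.31, adjusted p = 0.0114). Ifit2, Ifit3, Parp14, Dtx3l and Gbp7 also fell, by 1.04 to 2.54 on the log2 scale with adjusted p values between 0.0163 and 0.0467.

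Igtp had a wide separation within the KO 24 h group, at 84.2 CPM in replicate 1 and 2.48, 1.33 and 1.80 CPM in replicates 2 to 4, while KO sham lay between 21.6 and 69.7 CPM. It did not pass the test (-1.72, SE 0.82, adjusted p = 0.111). Irf9, the DNA-binding subunit of the ISRE complex, stood at 44.1 CPM in replicate 1 and at 12.2, 8.70 and 5.68 CPM in the others, against 23.6 to 34.6 CPM in sham (-0.70, adjusted p = 0.121). Replicate 1, a female liver, had the highest value of its group for 33 of the 40 members and lay above the KO sham range for 22. Replicates 2, 3 and 4 lay below the KO sham range for 33, 29 and 28 members. These range counts were not made over all genes, so they are not a result about the members alone. Replicates 2 and 3 were male and replicate 4 female.

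Without KO 24 h replicate 1, 27 members were called against KO sham, 4 higher and 23 lower, beside 39.6% of all genes called in either direction. Igtp then fell by 4.17 (SE 0.80, adjusted p = 0.000147) and Irf9 by 1.65 (SE 0.25, adjusted p = 6.16e-06). That liver was singled out for its high values of these same members. The p values without it therefore describe the other 3 livers and are not evidence of a fall. Mx2, Usp18, Rsad2 and Oasl1 remained higher. Without WT 48 h replicate 3 in the pooled spread the count was 19, 3 higher and 16 lower, beside 29.1% of all genes. Without KO 24 h replicate 2 or 4 it was 8 and 7, beside 20.6% and 16.3% of all genes. It was 8 without the sex term and 4 with the compared groups fitted alone, beside 25.9% and 8.12%. The calls of Mx2, Usp18 and Ifit3b held in each of the 8 other settings run for this comparison and with each of its 9 libraries left out. That of Rsad2 was lost without KO 24 h replicate 2 and with the compared groups alone (adjusted p up to 0.0882). The rise of Oasl1 was lost without any 1 of the 5 KO sham livers, without KO 24 h replicate 2 and in 5 of the 8 other settings, with adjusted p values between 0.0205 and 0.617 over all of them.

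Beside these values, markers of several other cell types were lower in the same group and some were higher. Of 10 Kupffer cell markers 9 fell, and their sum was 377.7 CPM in replicate 1 and 113.8, 124.5 and 183.1 CPM in replicates 2 to 4, against 328 to 509 CPM in KO sham. Of 10 sinusoidal endothelial markers 6 fell and 1 rose, with a sum of 76.0 to 107 CPM in the 4 livers against 131.9 to 227 CPM in sham. Of 12 T and NK cell markers tested 7 fell, and their sum was 1.83 to 3.62 CPM against 4.85 to 12.6 CPM. Of 7 B cell markers 4 fell, and their sum was 1.65 to 8.99 CPM against 7.82 to 19.6 CPM. Of 6 monocyte markers 1 fell, with a sum of 10.3 to 16.9 CPM against 13.4 to 16.1 CPM. Of 5 cholangiocyte markers 1 rose, Sox9 (2.75, SE 0.65, adjusted p = 0.00247), and their sum was 18.9, 65.3, 157.3 and 36.1 CPM against 14.7 to 45.5 CPM in sham. No stellate cell marker was called, and their sum was 193.1, 230.1, 344.9 and 320.8 CPM against 192.9 to 305.1 CPM. No neutrophil marker was called, with 6 of 9 differences positive and a sum of 3.90, 11.4, 14.3 and 8.32 CPM against 3.89 to 11.1 CPM. The part of these cells in the members' changes was not tested.

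**Figure D3:**
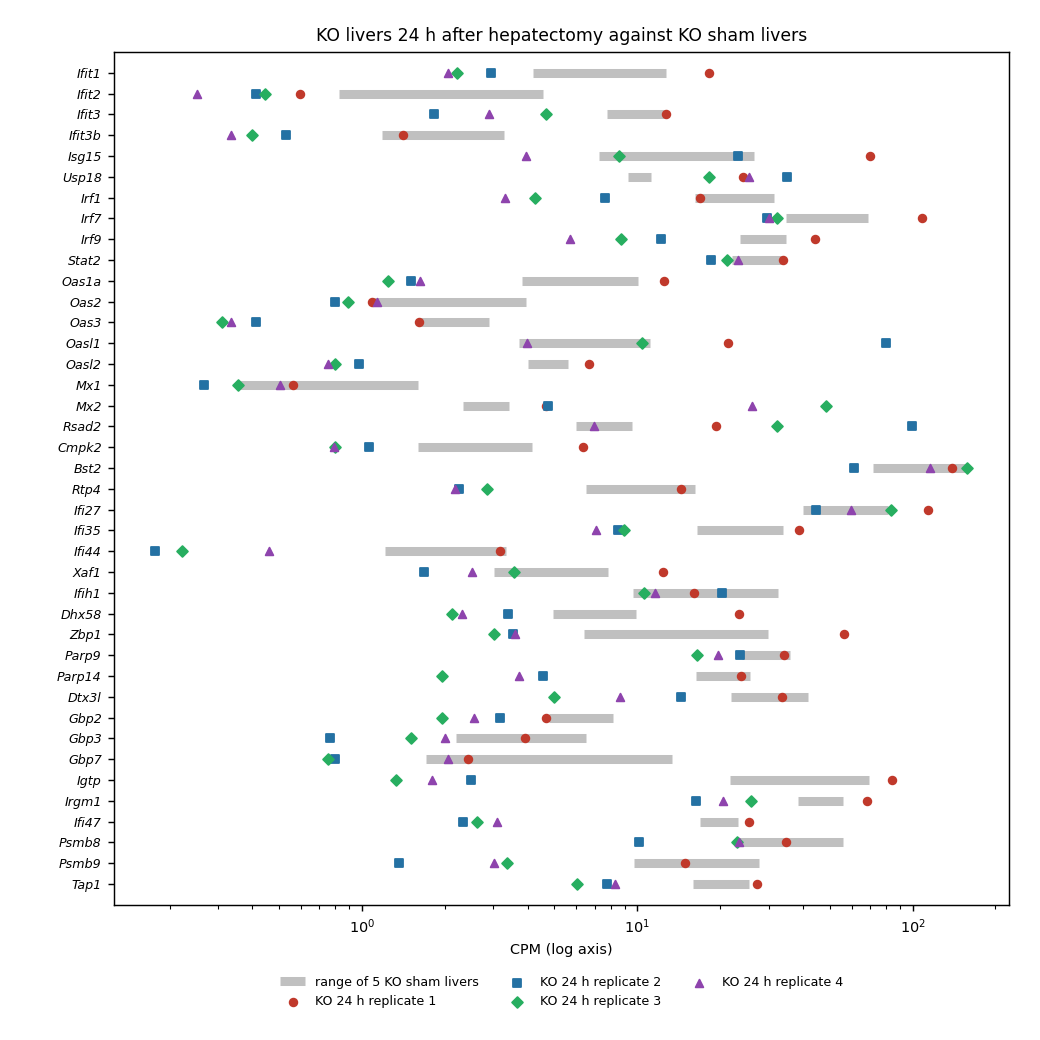
Level of each member in the 4 KO livers 24 h after hepatectomy (coloured markers, CPM on a log axis) over the range of the 5 KO sham livers (grey bar). Replicate 1 lies within or right of the bar for most members, replicates 2 to 4 lie left of it for 28 to 33 members, and Usp18 and Mx2 lie right of it in all 4 livers.

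At the other stages no member passed the test in KO livers. At 6 h none of 40 was called, against 6.62% of all genes, with 0 at an unadjusted p under 0.05, 0 in DESeq2 and 1 without KO 6 h replicate 2. At 48 h none was called, against 2.30% of all genes that rose and 0.700% that fell, again with 0 at an unadjusted p under 0.05 and 0 in DESeq2, although 37 of 40 differences were negative (median -0.36). At 6 h and at 48 h 1 member was called lower with the compared groups fitted alone, and 1 with male libraries alone. At 7 d none was called, against 0% of all genes, with 0 at an unadjusted p under 0.05 and 0 in DESeq2. Of all 15564 genes, 3404, 2072 and 497 had an unadjusted p under 0.05 at 6 h, 48 h and 7 d. KO 6 h replicate 3 held high values of Rsad2, at 34.0 CPM beside 9.16 and 4.88 CPM, and of Oasl1, at 48.0 CPM beside 5.88 and 3.11 CPM. KO 7 d replicate 2, a female liver, had the second highest mean level of the members in the series.

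**Figure D4:**
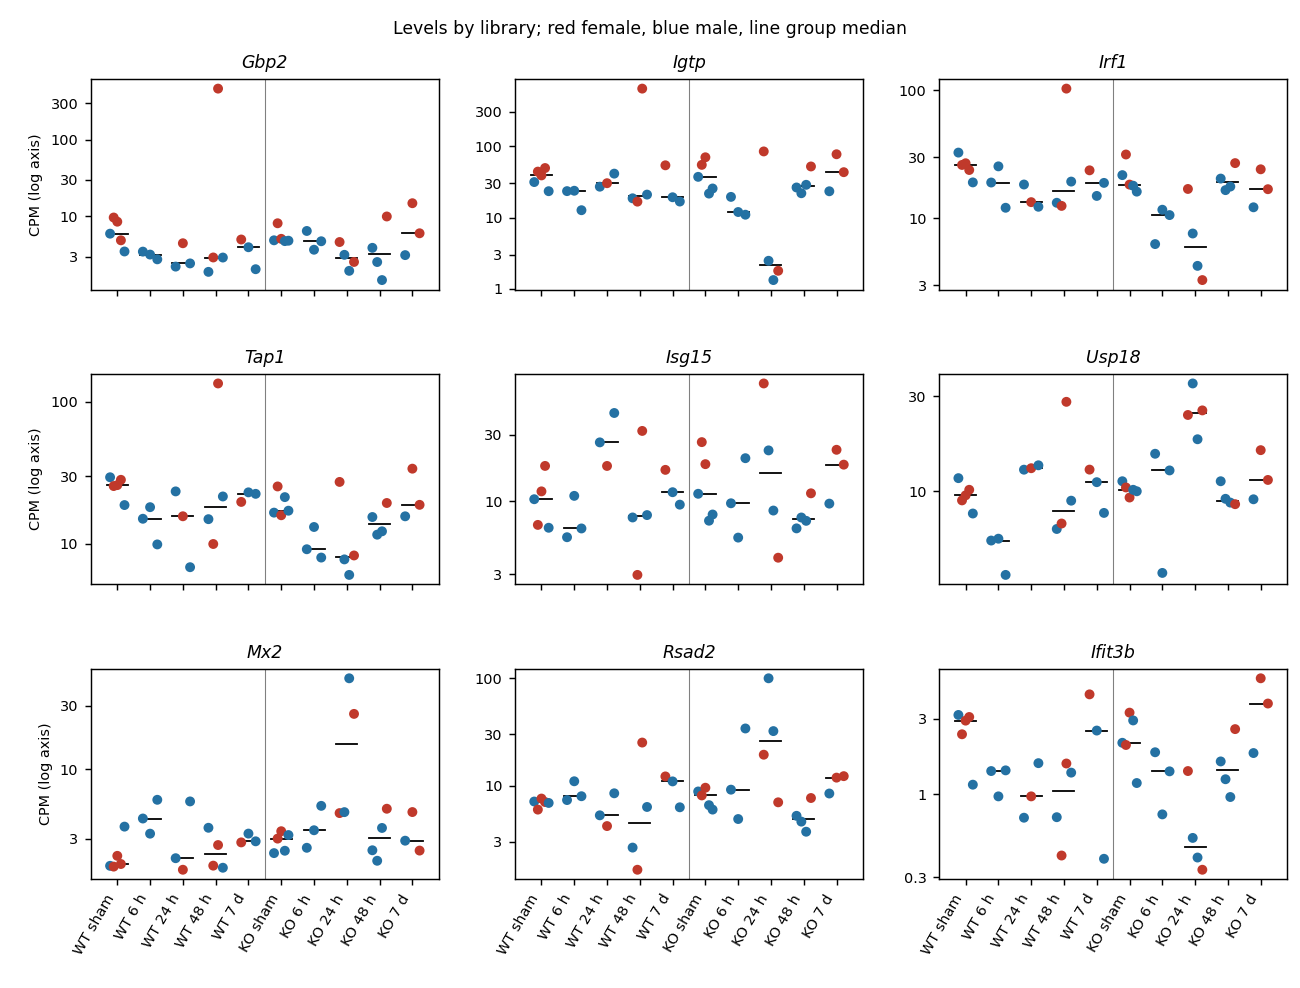
Levels of 9 members in each liver, in CPM on a log axis, by group (red female, blue male, black line the group median). In Gbp2, Igtp, Irf1 and Tap1 the single high point is WT 48 h replicate 3, and Mx2, Rsad2 and Usp18 have their highest points in KO livers at 24 h.

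The study compares the genotypes at each stage. In sham livers no member differed between KO and WT, against 0.276% of all genes, with 2 at an unadjusted p under 0.05 and 0 in DESeq2. At 6 h none differed, against 0.116% of all genes, with 3 at an unadjusted p under 0.05, 0 in DESeq2 and 2 without KO 6 h replicate 2. At 7 d none differed, against 0.0450% of all genes, with 0 at an unadjusted p under 0.05 and 0 in DESeq2. Of all 15564 genes, 1999, 1648 and 203 had an unadjusted p under 0.05 in sham livers, at 6 h and at 7 d. The largest sham difference by p was that of Oas2 (0.91, SE 0.29, adjusted p = 0.157), at 1.08 to 3.94 CPM in KO and 0.577 to 2.41 CPM in WT livers, which overlapped.

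At 24 h 2 members were higher in KO than in WT livers, 5% of them, below the 11.1% of all genes. Another 3 were lower, 7.5% of them, the same share as the 7.50% of all genes. The median difference over the members was -0.81, beside -0.03 over all genes. Mx2 was higher by 2.73 (SE 0.58, adjusted p = 0.00343), at 4.67 to 48.3 CPM in KO and 2.14, 1.75 and 5.72 CPM in WT livers, and these ranges overlapped. Rsad2 was higher by 2.73 (SE 0.73, adjusted p = 0.0123), with WT livers at 5.28, 4.20 and 8.47 CPM. Ifi44 was lower by -2.53 (SE 0.78, adjusted p = 0.0254), at 3.16, 0.177, 0.222 and 0.460 CPM in KO and 1.505, 2.08 and 6.08 CPM in WT livers. Zbp1 was lower by -2.21 (SE 0.75, adjusted p = 0.0395), at 56.3, 3.54, 3.02 and 3.60 CPM in KO livers and 35.1, 17.0 and 48.0 CPM in WT livers. Oas1a, a 2-5A synthetase, was lower by -1.40 (SE 0.47, adjusted p = 0.0360), at 12.5, 1.51, 1.24 and 1.63 CPM in KO livers and 6.15, 7.97 and 10.4 CPM in WT livers. In these 3 genes KO replicate 1 lay among or above the WT livers and replicates 2 to 4 lay below them.

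Beside these values, 7 of 10 sinusoidal endothelial markers were lower in KO than in WT livers at 24 h, among them Clec4g (-2.51) and Kdr (-2.30), and 3 of 10 Kupffer cell markers were lower, Vsig4, Cd5l and Adgre1. Gzma of the T and NK cell markers, Des of the stellate markers and Cox6a2 of the plasmacytoid dendritic markers were also lower. The 5 plasmacytoid dendritic markers summed to 0.343, 0.528 and 23.4 CPM in WT 24 h replicates 1 to 3 and to 0.418 to 1.02 CPM in KO livers. Only WT 24 h replicate 3 was therefore high in that sum. The hepatocyte markers Alb and Tat and the cholangiocyte markers Sox9 and Epcam were higher. The part of these cells was not tested.

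Without KO 24 h replicate 1 the count at 24 h was 23, 2 higher and 21 lower, beside 35.0% of all genes. It was 9 without WT 48 h replicate 3 in the pooled spread, beside 19.6% of all genes. It was between 1 and 3 without KO 24 h replicate 2, 3 or 4 or WT 24 h replicate 1 or 3. When the 2 groups were fitted alone no member was called.

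A genotype by hepatectomy interaction tests whether the change from sham differed between KO and WT mice. At 24 h it was positive for 1 member, against 5.52% of all genes, and negative for 2, against 2.96% of all genes. These were Mx2 (2.43, SE 0.71, adjusted p = 0.0338), Ifi44 (-3.26, SE 1.02, adjusted p = 0.0437) and Zbp1 (-3.06, SE 0.98, adjusted p = 0.0483). All 3 lie close to the threshold, and the call of each was lost in several alternatives. The count was 19 without KO 24 h replicate 1, beside 23.5% of all genes, and it was 0 or 1 without each of 11 other libraries. Those were WT sham replicates 2, 4 and 5, KO sham replicates 1, 3 and 4, WT 24 h replicates 1 and 3, and KO 24 h replicates 2, 3 and 4. It was 5 without WT 24 h replicate 2. Of the cell markers, Clec4g was negative in the interaction at 24 h and the cholangiocyte markers Krt19, Epcam and Sox9 were positive. The interactions at 6 h, 48 h and 7 d called 0 members and 0% of all genes, with 1, 6 and 1 members at an unadjusted p under 0.05 and 0 in DESeq2. Of all 15564 genes, 715, 1198 and 347 had an unadjusted p under 0.05 there.

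At 48 h no member differed between KO and WT livers, against 0.341% of all genes. An unadjusted p under 0.05 was reached by 9 members and by 1752 of all 15564 genes. DESeq2 called 2 members, and 1 was called without WT 48 h replicate 1, 2 or 4. Among the members, Gbp2 had the smallest p (-3.95, SE 0.98, adjusted p = 0.0754), followed by Ifi47 (-2.50, SE 0.77, adjusted p = 0.167) and Irgm1 (-1.68, SE 0.58, adjusted p = 0.211). The WT side of these differences contains WT 48 h replicate 3. KO 48 h livers held Gbp2 at 3.90, 2.54, 1.48 and 9.997 CPM, which overlapped the other 3 WT 48 h livers. Averaged over the stages no member differed, against 2.72% of all genes. An unadjusted p under 0.05 was reached by 6 members and by 3161 of all genes, and DESeq2 called 1 member. The smallest p among the members was that of Irf1 (-0.63, SE 0.21, adjusted p = 0.0943). Without KO 24 h replicate 1 the averaged comparison called 10 members, 1 higher and 9 lower, beside 13% of all genes. Without WT 48 h replicate 3 it called 2, both higher, beside 2.95% of all genes. It called 1 without WT 48 h replicate 2 or WT 24 h replicate 3.

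**Figure D5:**
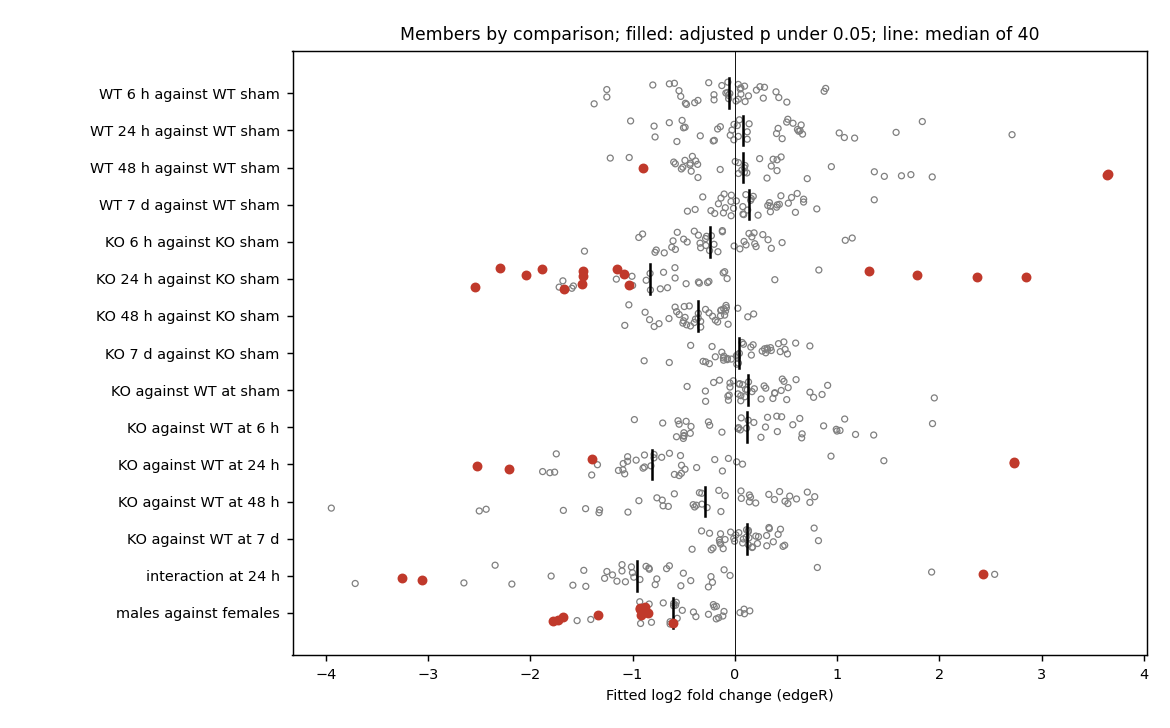
Fitted log2 change of each of the 40 members (points) in 15 comparisons, with those past the adjusted threshold filled and the median marked by a line. KO 24 h against KO sham, KO against WT at 24 h and the interaction at 24 h hold 15, 5 and 3 filled points and the medians furthest below 0, and males against females holds 11.

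Some members were lower in males than in females. This comparison was added after the values had been seen. Across all groups, with group in the model, 11 members were lower in males, 27.5% of them, against 1.97% of all genes, and none was called higher, with 36 of 40 differences negative. The median difference over the members was -0.60, beside 0.005 over all genes. Oas2 had the smallest p (-0.93, SE 0.17, adjusted p = 0.000645), at 2.30 ± 1.32 CPM in 14 female livers (SD) and 1.297 ± 0.4657 CPM in 23 male livers. Zbp1 followed (-1.68, SE 0.37, adjusted p = 0.00520), at 25 ± 22.6 CPM in females and 10.1 ± 10.3 CPM in males. The medians were 17.4 CPM in females and 7.78 CPM in males, and the ranges overlapped. Gbp3 (-1.73, adjusted p = 0.0140), Oasl2 (-0.88, adjusted p = 0.0158), Oas1a (-0.88, adjusted p = 0.0212) and Igtp (-1.78, adjusted p = 0.0227) were next. Oas3, Xaf1, Ifi44, Psmb8 and Rtp4 were the remaining 5. Oas2, Oasl2 and Zbp1 were lower in males with every library left out in turn.

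The 5 libraries with the highest mean level of the members, as the mean of log2(CPM + 1), were all female, at 4.84 in WT 48 h replicate 3, 4.31 in KO 7 d replicate 2, 4.07 in KO 24 h replicate 1, 3.91 in WT 7 d replicate 1 and 3.84 in KO 48 h replicate 4. The lowest were also female, at 2.51 in WT 48 h replicate 2 and 2.52 in KO 24 h replicate 4. The count of members lower in males was 6 without WT 48 h replicate 3 and 6 without KO 24 h replicate 1. Beside these, 3.9% and 3.68% of all genes were called in either direction. The count was 4 without KO 48 h replicate 4. It was 17 without WT 48 h replicate 2, and 7 without WT sham replicate 5, WT 48 h replicate 1, KO 24 h replicate 2 or KO 7 d replicate 1. Beside this, 3 of 10 Kupffer cell markers (Marco, C1qa and C1qb), 1 of 6 monocyte markers (Fcgr1) and 2 of 12 T and NK cell markers (Gzma and Gzmb) were lower in males. The part of these cells was not tested.

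The wider pathway was read from fixed lists. Of 10 interferon ligand genes, Ifnb1, Ifna1, Ifna2, Ifna4, Ifna5, Ifne, Ifnl2 and Ifnl3 had 0 counts in all 37 libraries, which allows up to 0.00235 CPM over the libraries together. Ifng, interferon gamma, had 13 counts in 9 libraries with at most 4 in one, and Ifnk had 2 counts in 1 library. WT 48 h replicate 3 held Ifng at 0.0238 CPM, beside 0.0327, 0 and 0 CPM in its group. The ligands were therefore at or near the detection limit in whole liver at this depth.

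Of 10 receptor and JAK-STAT genes, 2 rose and 1 fell in KO livers at 24 h, which were Jak1, the kinase shared by the interferon receptors (0.80, SE 0.22), Ifngr1, an interferon gamma receptor chain (0.63, SE 0.21), and Ifnar2, a type I receptor chain (-0.52, SE 0.18). Those counts stand beside 15.9% of all genes that rose and 12.0% that fell. Jak1 (0.84, SE 0.25) and Ifngr1 (0.77, SE 0.25) were also higher in KO than in WT livers at 24 h, and Jak1 was positive in the interaction (1.12, SE 0.33). In WT livers 1 of the 10 rose at 6 h, Ifnlr1, a type III receptor chain (3.27, SE 0.94), and 1 rose at 48 h, Ifngr1 (0.78, SE 0.21). Of all genes, 7.86% were called at 6 h in either direction and 4.68% rose at 48 h. The 10 receptor and JAK-STAT genes summed to 301.5 CPM in WT sham replicate 5, the 6 h sham liver, within the 293.5 to 366.8 CPM of WT 6 h livers. The other WT sham livers held 230.4 to 275.8 CPM.

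Of 6 negative regulators, 2 rose in WT livers at 6 h, Socs3, an inhibitor of JAK signalling (2.56, SE 0.60), and Ptpn2, a phosphatase of JAK and STAT proteins (2.30, SE 0.53). Of all genes, 7.86% were called there in either direction. The 6 summed to 346.8 to 396.1 CPM in WT 6 h livers. Their sum was 251.5 CPM in WT sham replicate 5, the 6 h sham liver, and 67.55 to 96.6 CPM in the other WT sham livers. The part of the sham operation in these rises was not tested. In KO livers at 6 h Socs3 and Ptpn2 also rose (1.93 and 2.11), beside 6.62% of all genes called in either direction. Irf2, a repressor that competes with Irf1 for its sites, fell by 1.09. At 24 h in KO livers Ptpn2 rose by 1.98 (SE 0.49), at 2.92, 11.8, 49.7 and 26.8 CPM beside 3.71 to 7.61 CPM in sham, and Irf2 fell by 1.63 (SE 0.27). Replicate 1 lay below sham for Ptpn2 and the other 3 above. Relative to WT livers at 24 h, Socs1, another JAK inhibitor, was higher (3.50, SE 1.26) together with Ptpn2 (2.13, SE 0.59).

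Of 14 sensing and induction genes, Mavs, the adaptor of RNA sensors, fell by 0.84 (SE 0.31) and Irf5 by 0.84 (SE 0.29) in KO livers at 24 h, and Sting1, the adaptor of DNA sensing, rose in WT livers at 6 h (1.31, SE 0.37). Of all genes, 12.0% fell in KO livers at 24 h, and 7.86% were called in WT livers at 6 h in either direction. The 14 summed to 355.1 CPM in WT sham replicate 5, the 6 h sham liver, within the 272.6 to 357.5 CPM of WT 6 h livers. The other WT sham livers held 219.3 to 242.8 CPM. Of 41 other interferon-responsive genes, 6 fell and none was called higher in KO livers at 24 h. The 6 are 14.6% of that list, close to the 12.0% of all genes that fell. Sp100, a nuclear body protein (-1.19, SE 0.24), Ifi203, a DNA-binding protein (-2.06, SE 0.46), and Gbp5 (-2.85, SE 0.71) had the smallest p values. At 48 h in WT livers 4 of the 41 rose, beside 4.68% of all genes. Among them was Tgtp1 (3.92, SE 1.13), an IRG GTPase at 986 CPM in replicate 3 beside 0.979 to 4.05 CPM in the other 3 livers. All 4 were far higher in replicate 3 than in the other livers of its group. In KO livers at 6 h Nlrc5, the class I transactivator (1.57, SE 0.39), and Cxcl10, a chemokine (3.70, SE 0.97), rose. Of all genes, 6.62% were called there in either direction.

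Several members have close copies or overlapping neighbours, so reads may have been divided between them by the counting. These are Ifit3 and Ifit3b, Oas1a and its relatives, Oasl1 and Oasl2, Mx1 and Mx2, and Gbp2, Gbp3 and Gbp7. Parp9 (chromosome 16, 35938470 to 35972605, plus strand, GRCm38) and Dtx3l (35926511 to 35939151, minus strand) overlap. Psmb9 (chromosome 17, 34181987 to 34187764, minus strand) and Tap1 (34187553 to 34197225, plus strand) overlap as well. The strand setting of the counting is not given in the sources used here. Rsad2 (chromosome 12, 26442746 to 26456452, minus strand) and Cmpk2 (26469204 to 26479837, plus strand) are neighbours. In KO livers at 24 h Rsad2 rose while Cmpk2, a mitochondrial nucleotide kinase, stood at 6.36, 1.06, 0.799 and 0.794 CPM against 1.60 to 4.13 CPM in sham.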

How the data were processed

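RNA of 37 frozen livers was sequenced from stranded mRNA libraries, per the labels' protocols. The deposited table holds expected counts per gene as whole numbers. The submitters' processing notes name STAR 2.5.3a, RSEM 1.3.0 and the mouse build GRCm38, without saying which tool counted, and no strand setting is stated. No value column was left unmapped.

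Libraries were scaled by edgeR's TMM factors, and CPM are counts per 1000000 counts on that scale. Genes were kept by filterByExpr. edgeR 4.0.16 (robust quasi-likelihood test, R 4.3.3) was fitted on 10 groups plus sex over 15564 genes, with Benjamini-Hochberg adjustment and a threshold of 0.05, and every adjusted p comes from it. The fit was tested on simulated data. Alternatives used DESeq2 1.42.0, RLE scaling, no count filter, no sex term, the compared groups alone, male libraries alone, no 6 h sham livers, and each library left out.

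Lengths and positions come from GENCODE release 21 (mouse), promoters from RefSeq. No pair of libraries in a group agreed within sampling noise. Nothing says that sham livers share a day with others, and p-values measure the spread between these livers. Members and lists were chosen with earlier results of these data known. Named in each comparison were up to 6 members per direction with the smallest p past the threshold, or up to 3 where none passed, and up to 3 genes of each pathway list. Values by liver were kept for a panel of 14 members.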

Additional observations from a re-analysis of the deposited data

Results flagged for a closer look

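Levels of the 14 panel members and their mean level were checked in the 5 groups of 4 or 5 livers, 75 group values in all, for a liver far from the rest of its group. For a single gene with normally spread values chance marks about 1 in 20 such groups, and 16 of the 75 were marked. The 75 values share the same livers and are not independent, so the 16 cannot be judged against that rate. Of the 16, 6 came from WT 48 h replicate 3.

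KO 24 h replicate 1 lay far above its group for Ifit1 (18.1 CPM), Irf7 (108 CPM), Irf9 (44.1 CPM), Oasl2 (6.68 CPM), Igtp (84.2 CPM) and Tap1 (27.3 CPM), and for the mean level of the 40 members (4.07 as log2(CPM + 1)). WT 48 h replicate 3 lay far above its group for Irf1 (102.6 CPM), Usp18 (28.2 CPM), Oasl2 (10.5 CPM), Gbp2 (465.6 CPM), Igtp (637.5 CPM) and Tap1 (135.1 CPM). Among sham livers, Irf9 was high in WT sham replicate 5 (36.6 CPM), Oasl2 was low in KO sham replicate 5 (3.99 CPM) and Gbp2 was high in KO sham replicate 2 (8.15 CPM). WT sham replicate 5 and KO sham replicate 5 are the 6 h sham livers.

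The change from sham to 24 h differed between KO and WT mice, by the interaction test in edgeR, for Mx2 (2.43 on the log2 scale, adjusted p = 0.0338), Ifi44 (-3.26, adjusted p = 0.0437) and Zbp1 (-3.06, adjusted p = 0.0483).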

How the results depend on the processing

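Counts of called members depended on single livers and on the pooled spread. Leaving out each library gave 7 to 27 for KO 24 h against sham (15 as reported), 1 to 23 for KO against WT at 24 h (5), 0 to 19 for the interaction at 24 h (3), 0 to 10 for the average over stages (0), 0 to 5 for WT 48 h (3), 4 to 17 for males against females (11) and 0 to 2 for WT 24 h and for KO against WT at 6 h. It gave 0 to 1 for KO 6 h and for KO against WT at 48 h. Leaving out each library moved Gbp2 at 48 h in WT between -1.06, without WT 48 h replicate 3, and 4.16. It was -0.97 in male libraries alone, which leave that liver out.
DESeq2 called 6 members in the interaction at 24 h, 8 for KO against WT at 24 h, 2 for KO against WT at 48 h, 6 for WT 48 h, and 1 for the average, WT 24 h and WT 7 d. Without the count filter the interaction held 0, KO against WT at 24 h 3 and sex 7. Without the sex term KO 24 h held 8, KO against WT at 24 h 2, the interaction 1 and WT 6 h 1. With the compared groups alone KO 24 h held 4, KO 6 h and KO 48 h 1, and the interaction, KO against WT at 24 h and WT 48 h 0. Male libraries alone, with KO 24 h replicates 2 and 3 only, gave 24 for KO 24 h, 20 for KO against WT at 24 h, 11 for the interaction, 2 for the average, 1 for KO 6 h, KO 48 h and WT 24 h, and 0 for WT 48 h. Without the 6 h sham livers the interaction held 0 and sex 6. Leaving WT 48 h replicate 3 out of the pooled spread, chosen after seeing the data, gave 9 for KO against WT at 24 h, 2 for WT 6 h and 1 for WT 24 h. The cause of these shifts was not tested. The share of all genes called also moved between settings. For KO 24 h against sham it was 29.1% without WT 48 h replicate 3 and 39.6% without KO 24 h replicate 1. The counts of this section, and those given above under other settings, are therefore not a result about the members alone. RLE scaling changed no count by more than 1.5 times. With 3 to 5 livers a group, and members such as Mx1, Oas2 and Ifi44 at few CPM, small changes were not detectable.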

Other observations

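Among the 41 other interferon-responsive genes, WT 48 h replicate 3 held Tgtp2 at 82.9 CPM beside 1.31, 1.41 and 2.02 CPM in its group, Gbp6 at 196.1 CPM beside 3.62 to 7.802 CPM, and Gbp9 at 22.9 CPM beside 0.751 to 2.31 CPM. Cxcl10 stood at 31.6 CPM beside 0.411 to 1.87 CPM. In KO livers at 24 h Tgtp1 stood at 14.1, 0.354, 0.178 and 1.59 CPM in replicates 1 to 4 and between 5.35 and 23.1 CPM in KO sham, and Gbp6 stood at 17.96, 0.945, 1.51 and 2.09 CPM beside 3.82 to 17.1 CPM. These genes were picked after their values were seen and are given with no test.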
